A study of Mus musculus with 2 samples.

Results

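DNA replication genes are described here in tumor cells of a mouse melanoma. The group holds 37 genes of the 32285 in the deposited count table, chosen by symbol for known functions in copying DNA. The choice was made with earlier results of these data known. It was read in barcodes with at least 5000 gene UMIs (unique molecular identifiers, which count captured transcripts) and at most 15% mitochondrial UMIs. The cells came from 1 pool of 18 tumors of NMM, an NRAS-mutated mouse melanoma grown in Rag-/- mice, which make no T or B cells of their own. The labels list 3 conditions with 6 tumors each, Mix PBS, Mix + T and Ag-GAS + T. The tumors had been exposed to T cells or, as the control, to PBS, and every tumor shared the line and the host genotype. Single cells were stained with hashtag antibodies, pooled, and sorted for CFP, a fluorescent protein that marked the cells called bystander in the labels. Age and sex of the mice, the number of clones in the line, and the meaning of Ag-GAS and Mix are not stated in the labels. No label ties a hashtag to a condition, so no comparison between conditions was made, and every value below describes cells of 1 pooled library without a p-value.

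Replication starts when the origin recognition complex, Cdc6 and Cdt1 load the ring of Mcm2 to Mcm7 onto DNA in G1. In S phase Cdc45 and the GINS complex turn that ring into an active helicase, polymerases copy both strands, and Pcna, a sliding clamp loaded by the Rfc complex, holds them on the template. Many of these genes are transcribed at the G1/S boundary by E2F factors, which the retinoblastoma protein holds back until cyclin-dependent kinases release them. Interferon-gamma, made by T cells, induces class I antigen presentation in many cell types and is known to slow division in some of them.

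Promoter letters were one feature, beyond the symbols, that many members shared. RefSeq promoter windows (GRCm38.p6, 250 bases before to 50 after a start site) were found for 30 of the 37 members. Those of Mcm4, Gins1, Gins2, Ccne2, Rfc2, Exo1 and Dscc1 were not matched. Several windows were held by 4 members, which made 35 windows in all, and a match in any of them was counted. The words TTTCGCGC, TTTGGCGC, TTTCCCGC and TTTGCCGC, forms of the E2F site, were searched on both strands, with overlaps allowed. At least 1 of them stood in 12 of the 30 members (40.0%), against 704 of 27025 genes with a window (2.605%). A match is a description of letters, and binding was not measured. The 12 members are shown with up to 11 bases on each side of the match nearest the start site, 5′ to 3′ on the gene's strand, with the matched word in capitals.
Mcm3 (chr1:20820275-20820304, minus strand): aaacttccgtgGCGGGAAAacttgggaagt
Mcm5 (chr8:75109349-75109378, plus strand): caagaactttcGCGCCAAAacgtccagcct
Mcm6 (chr1:128359734-128359763, minus strand): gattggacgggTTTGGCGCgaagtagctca
Mcm7 (chr5:138171849-138171878, minus strand): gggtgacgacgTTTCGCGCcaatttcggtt
Cdc6 (chr11:98908002-98908031, plus strand): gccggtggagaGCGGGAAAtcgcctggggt
Cdt1 (chr8:122568036-122568064, plus strand): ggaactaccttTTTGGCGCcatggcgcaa
Pola1 (chrX:93632275-93632304, minus strand): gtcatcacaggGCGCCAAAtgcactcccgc
Lig1 (chr7:13278841-13278870, plus strand): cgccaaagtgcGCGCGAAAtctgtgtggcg
Hells (chr19:38930917-38930946, plus strand): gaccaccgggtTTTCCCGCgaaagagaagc
Uhrf1 (chr17:56304117-56304146, plus strand): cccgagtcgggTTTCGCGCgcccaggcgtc
Dtl (chr1:191575534-191575563, minus strand): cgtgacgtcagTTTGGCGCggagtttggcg
Clspn (chr4:126556990-126557019, plus strand): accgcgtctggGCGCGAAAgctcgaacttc

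Matches were spread unevenly over the roles. They stood in 6 of 9 licensing and helicase genes with a window, 2 of 6 fork genes, 2 of 6 chromatin genes, 2 of 4 regulators and 0 of 5 nucleotide genes. The last count says only that these letters are not in those windows. Among 63 further replication genes listed for comparison, 17 of 50 with a window held a match, as did 2 of 17 class I genes, 1 of 36 G2/M genes and 0 of 15 interferon-gamma genes. The 17 matches in members lay between 185 bases before and 38 bases after the RefSeq start of their window. The median was 62 before it, and 9 began within 100 bases of it. For Mcm7, Cdc6, Lig1 and Uhrf1 the matched window began downstream of the first base of the annotated gene. The same held for the windows of Dut and E2f1, which had no match. Mcm6, a subunit of the helicase ring, held 3 matches, of which a pair overlap on opposite strands as TTTGGCGCGAAA. Rrm2, the small subunit of ribonucleotide reductase, held none, although its level followed that of the other members most closely. The 250 bases before the start of both genes are given for comparison, with matches in capitals.
Mcm6 (chr1:128359706-128359955, minus strand): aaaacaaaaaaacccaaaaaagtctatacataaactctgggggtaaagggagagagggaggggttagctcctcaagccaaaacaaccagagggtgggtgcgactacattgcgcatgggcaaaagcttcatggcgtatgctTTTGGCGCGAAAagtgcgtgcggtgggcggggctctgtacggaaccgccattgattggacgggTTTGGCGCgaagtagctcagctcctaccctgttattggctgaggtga
Rrm2 (chr12:24708004-24708253, plus strand): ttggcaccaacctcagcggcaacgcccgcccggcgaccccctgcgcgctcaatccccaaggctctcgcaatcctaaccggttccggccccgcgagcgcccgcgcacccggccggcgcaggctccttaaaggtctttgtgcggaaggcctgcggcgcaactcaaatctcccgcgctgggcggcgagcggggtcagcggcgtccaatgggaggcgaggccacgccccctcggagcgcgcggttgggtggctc

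The word CCAAT, bound by NF-Y, stood on either strand in 19 of 30 members (63.3%) and 41.1% of all genes. It stood in 23 of 50 other replication genes (46.0%) and 27 of 36 G2/M genes. Outside the cycle lists, it stood in 12 of 17 class I genes and 5 of 15 interferon-gamma genes. The members' share was below those of G2/M and class I genes alike, so this word did not set cycle genes apart. TTTGAA, a form of the element found in promoters of mitotic genes, was in 4 of 30 members (13.3%), 11 of 50 other replication genes, 27 of 36 G2/M genes and 20.2% of all genes.

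Of 20917 barcodes, 1657 passed both limits, and 109 with 3 or more hashtags were left out as mixed droplets. The 1548 cells that remained held 5049 to 176379 UMIs (median 44536), and 1426 of them carried 1 of 18 hashtag pairs, with 18 to 245 cells each. That each pair is 1 tumor is an inference from the number of pairs. The label melanoma had little support from pigment cell markers. Tyr, Tyrp1 and Kit were at 0 UMIs, which allows up to 0.0414 CPM (counts per 1000000 gene UMIs), Sox10 had 3 UMIs, Mitf reached 4.07 CPM and Pax3 32.1 CPM. The 8 T cell markers summed to 0.663 CPM, with 4 at 0 (Cd3e, Cd3g, Cd8a and Cd2), and ranged from 0 to 1.90 CPM over tag pairs. Macrophage markers summed to 15.8 CPM (0 to 151 over pairs) and fibroblast markers to 907 CPM, of which Col3a1 gave 762. Their r with the members is given beside the relation to class I.

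Together the 37 members held 1956 CPM in kept cells (exact 95% Poisson interval 1946 to 1966), a level that counts transcripts captured at their 3′ end and is not scaled by gene length. Intervals cover counting error only. The 18473 barcodes under 800 UMIs, taken as free RNA, held 1971 CPM, and 22 members were higher in cells than in those barcodes, against 75.7% of the 11067 genes tested (those found in at least 5% of cells). A member's UMIs in a cell therefore need a reference within cells. Cells at the low end of the G2/M score gave one: Mcm10, a factor that helps start the helicase, was at 0.372 CPM there against 15.03 in the free RNA, and Exo1, a DNA exonuclease, at 0.186 against 10.9. These were the members furthest below free RNA, and their levels in those cells rest on very few UMIs. In those cells all 37 members were below their level in free RNA, at a median of 0.286 times it, and E2f1 and Slbp were nearest to it, at 0.769 and 0.802 times. The share of all genes below their free RNA level there was not taken. The G2/M score had r of 0.425 with the member score, so low levels follow in part from the choice of cells.

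**Figure D1:**
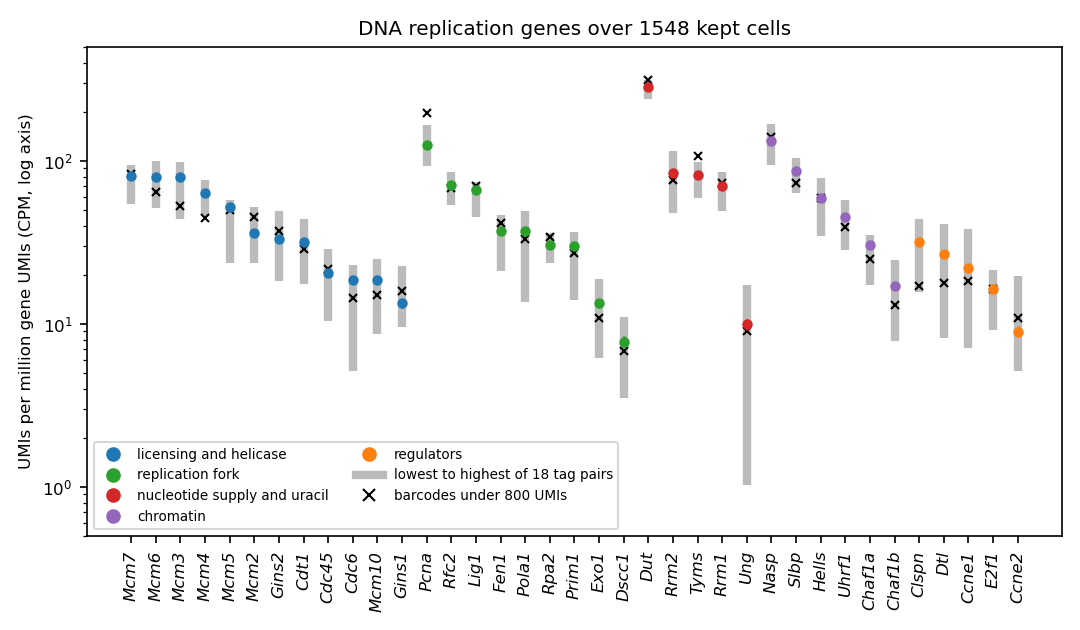
Level of each member in 1548 kept cells (coloured points by role, CPM on a log axis, with exact Poisson intervals that are mostly smaller than the points). Grey bars run from the lowest to the highest of 18 tag pairs and crosses give barcodes under 800 UMIs. Dut stands highest at 283 CPM. Ung has the longest bar, whose ends rest on few UMIs in pairs of 20 and 18 cells.

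Licensing and helicase genes held 528 CPM. Mcm7, Mcm6 and Mcm3, subunits of the helicase ring, were at 81.1, 79.7 and 79.4 CPM, and their counting intervals overlap. Mcm4 was at 63.8, Mcm5 at 52.5 and Mcm2 at 35.9 CPM, so captured transcripts of the 6 subunits, of which a ring holds 1 each, were not at 1 common level. In tag pairs, Mcm3 ran from 44.0 to 99.2 CPM (median 75.6) and Mcm4 from 46.3 to 76.9 (median 62.1). The GINS subunits Gins2 and Gins1 were at 33.0 and 13.4 CPM. The loaders Cdt1 and Cdc6 were at 31.8 and 18.6, Cdc45, the helicase partner, was at 20.5 and Mcm10 at 18.5 CPM. Cdc6 had a UMI in 28.4% of cells (exact binomial interval 26.1 to 30.7%), whereas Mcm7 had one in 74.0%.

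Replication fork genes held 420 CPM, led by Pcna at 126 CPM (93.1 to 166 over tag pairs, median 122). Rfc2, a subunit of the clamp loader, followed at 71.6 CPM and Lig1, the ligase that joins lagging-strand fragments, at 66.4. Fen1, the flap nuclease of that strand, and Pola1, the catalytic subunit of the priming polymerase, did not differ beyond counting error at 37.4 and 37.3 CPM. The same held for Rpa2, a part of the single-strand binding protein, at 30.31 and Prim1, the primase, at 29.98 CPM. Exo1 was at 13.4 CPM. Dscc1, a part of an alternative clamp loader, was the lowest of all members at 7.72 CPM (interval 7.09 to 8.38). Pcna was also 1 of the 15 members that were not higher in cells than in free RNA, where it stood at 196 CPM.

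Nucleotide genes held 530 CPM in 5 members, and Dut, which removes dUTP, gave 283 of them, the highest level of the group. Dut ranged over tag pairs from 240 to 316 CPM (median 271), a ratio of 1.31, and had a UMI in 95.4% of cells. Rrm2 and Tyms, the thymidylate synthase, were at 84.2 and 82.2 CPM with overlapping intervals, and Rrm1, the large subunit of ribonucleotide reductase, at 70.6. Rrm2 had a UMI in 48.6% of cells, fewer than Rrm1 (64.1%) or Tyms (71.7%), and its variance over thinned cells was 3.78 times its mean, above the other members. The uracil glycosylase Ung, which takes uracil out of DNA, was at 9.95 CPM and had a UMI in 21.6% of cells.

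Chromatin genes held 372 CPM. Nasp, a histone chaperone, was at 133 CPM (94.5 to 169 over tag pairs, median 126) and Slbp, which binds the stem-loop of histone mRNA, at 86.3. Hells, a chromatin remodeler, followed at 59.6 and Uhrf1, which brings Dnmt1 to newly copied DNA, at 45.2. Chaf1a and Chaf1b, subunits of the factor that places histones behind the fork, were at 30.6 and 17.2 CPM. The 5 regulators held 106 CPM. Clspn, an adaptor of the replication checkpoint, was at 31.8 and Dtl, which marks Cdt1 for destruction, at 26.9. Cyclin E1 (Ccne1) was at 22.1, the factor E2f1 at 16.4 and cyclin E2 (Ccne2) at 8.97 CPM.

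Across tag pairs the summed level of the members moved little. It ran from 1455 CPM in HTO1+HTO3 (20 cells) to 2167 in HTO3+HTO6 (26 cells), with a median of 1902, a ratio of 1.49 (counting interval 1.395 to 1.591). In pairs of at least 50 cells the ratio was 1.22. The pairs accounted for 0.938% of the variance of the member score over cells, the mean log-normalized level after thinning, against 45.15% for the interferon-gamma score and 1.02% for the G2/M score. In such sums, fewer cells in S phase and less member RNA per cell cannot be told apart.

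**Figure D2:**
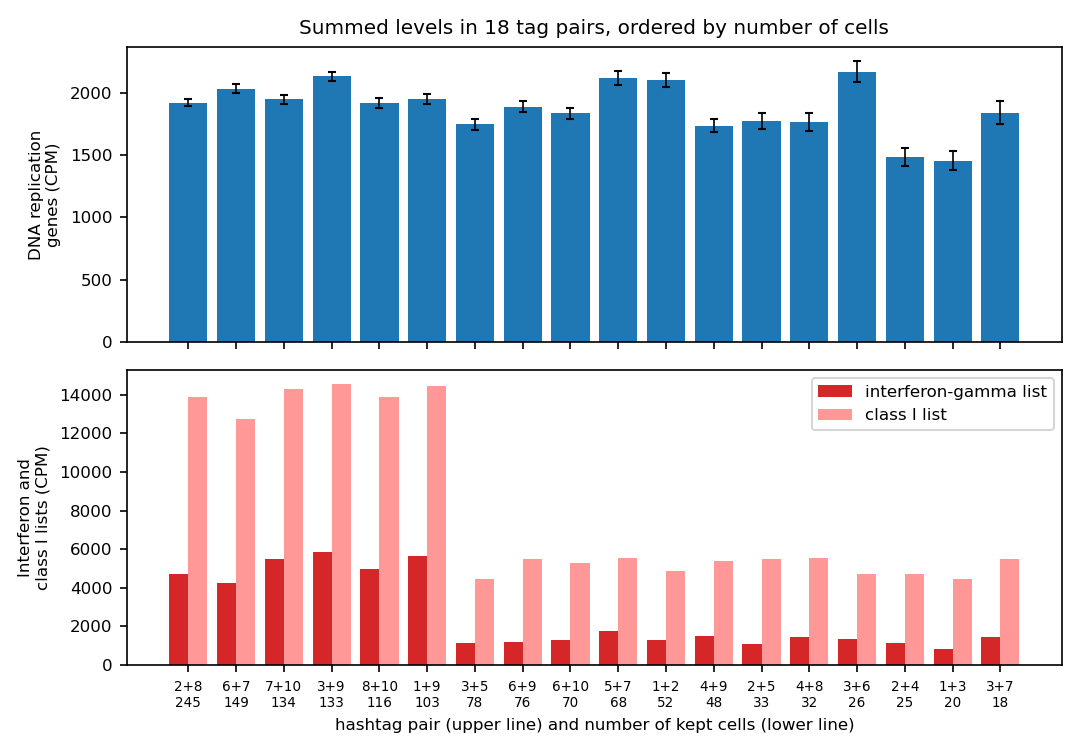
Summed level of the 37 members (upper bars, with exact Poisson intervals) and of the interferon-gamma and class I lists (lower bars) in 18 tag pairs, in CPM, ordered by number of cells. The 6 pairs with at least 100 cells have the highest interferon-gamma and class I levels, while the members stay between 1455 and 2167 CPM.

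The lists beside the members held 24 interferon-gamma response genes, 20 class I genes, 25 type I interferon genes, 44 G2/M genes and 21 histones. The 6 pairs with at least 100 cells held 4272 to 5837 CPM of interferon-gamma genes and the other 12 held 835 to 1784, with no overlap. Member levels in the same sets of pairs were 1917 to 2132 CPM (median 1949) and 1455 to 2167 CPM (median 1801), which overlap. Class I levels were 12770 to 14550 and 4450 to 5536 CPM. Whether cell number and interferon level share a source cannot be told apart here. Most members were lowest in a small pair: 32 of 37 had their lowest level in 1 of 3 pairs of 25 cells or fewer (HTO1+HTO3, HTO2+HTO4 and HTO3+HTO7), as did 38.1% of genes tested. Of these, 16 were lowest in HTO1+HTO3 and 10 in HTO2+HTO4, the pairs with the lowest summed levels (1455 and 1482 CPM). The count therefore does not separate single members from the whole group. For 28 members the highest pair was less than 3 times the lowest, against 68.3% of genes. Ung was the exception at the other end, with 1.02 CPM in HTO1+HTO3 and 17.4 in HTO3+HTO7 (median 8.49), the second a pair of 18 cells. Ccne1 ran from 7.16 CPM in HTO1+HTO3 to 38.4 in HTO4+HTO9, and Dtl from 8.19 to 40.9. The lowest levels of these 3 genes rest on few UMIs, since all members together held 1422 UMIs in the 20 cells of HTO1+HTO3.

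The 122 kept cells in no tag pair held 2223 CPM of members (interval 2185 to 2261), above the 1932 CPM of cells in a pair, and 4029 against 2979 CPM of G2/M genes. Their class I level was 2252 CPM, below every tag pair. As background, TotalSeq-A hashtag antibodies for mouse cells bind CD45 and class I MHC. The part of these cells, which lie outside the values within tag pairs, was not tested.

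From cell to cell the members varied widely and together. With each cell thinned to 20000 UMIs (1407 cells), a cell held 2 to 126 member UMIs, with a median of 24 and 10th and 90th percentiles of 8 and 79. The variance was 22.4 times the mean. A median of 13 members had a UMI in a cell. After the mean of each tag pair was subtracted (1302 cells), all 666 pairs of members had a positive Pearson's r, from 0.0796 (Exo1 with E2f1) to 0.569 (Uhrf1 with Rrm2), with a median of 0.319. All these values come from the same cells and libraries, and r is lower for genes with few UMIs.

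Against the mean of the other members, 36 of 37 had r of at least 0.3, a size reached by 3.70% of genes tested. Joint variation is in part what the list was chosen for. Rrm2 had the highest r (0.741), followed by Mcm3 (0.705), Pcna (0.687), Mcm5 (0.677) and Uhrf1 (0.672). E2f1 had the lowest (0.254), then Ung (0.342) and Gins2 (0.379). The roles moved with each other at r of 0.823 between licensing and chromatin genes and 0.620 between nucleotide genes and regulators, the highest and lowest of the 10 combinations.

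Histone and G2/M genes placed the members in the cell cycle. The replication-dependent histones, made mainly in S phase, had r of 0.664 with the member score (0.562 to 0.826 in 16 tag pairs with at least 20 thinned cells). G2/M genes had 0.425 (0.302 to 0.773). Of the members, 28 had r of at least 0.3 with the histone score, against 2.21% of genes, and 13 did so with the G2/M score, against 2.67%. The nucleotide genes Rrm1 (0.511), Tyms (0.4998) and Rrm2 (0.467) stood highest with G2/M, then Lig1 (0.393) and Clspn (0.384). Ung stood lowest at -0.0454, then E2f1 (-0.0299), Ccne1 (0.0324), Ccne2 (0.0462), Cdt1 (0.0877) and Slbp (0.0967). Cdc6 and Gins2 followed at 0.112 each, beside 0.336 and 0.209 with histones. Roles did not separate fully, since Clspn, a regulator, stood high and Ung, grouped with the nucleotide genes, lowest.

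**Figure D3:**
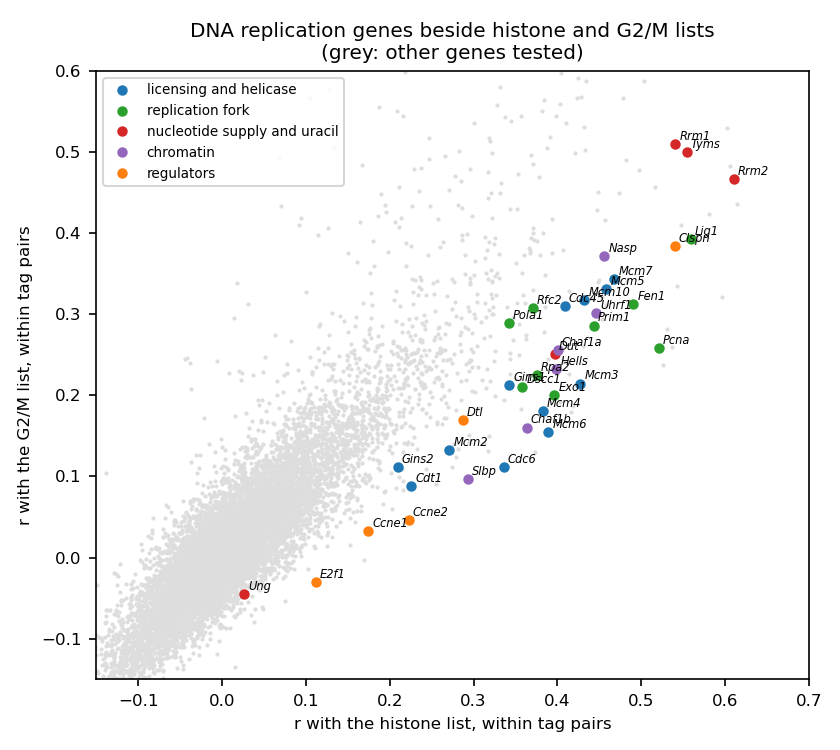
Pearson's r of each member with the histone score (x axis) and the G2/M score (y axis) over 1302 thinned cells after subtracting tag pair means, with other tested genes in grey. Rrm1, Tyms and Rrm2 lie at the upper right, and Ung, E2f1, Ccne1 and Ccne2 at the lower left of the members.

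Levels were also read along the same G2/M score in the same cells, which is not a separate measure. Cells were put into 5 equal bins by G2/M score within each tag pair, bins that were chosen after seeing the data. From bin 1 (lowest score) to bin 5 the members held 676, 810, 1704, 3141 and 2150 CPM. G2/M genes went from 126 to 7974 CPM by construction, and histones ran from 54.1 in bin 1 to 998 in bin 4 and 800 in bin 5. Thus 35 of 37 members were highest in bin 4, below the top of the G2/M score, as were 21.6% of genes tested. Rrm2 went from 3.53 CPM in bin 1 to 161 in bin 4 and 107 in bin 5. Cdc6 went from 1.67 to 40.4 and back to 10.96, and Ccne2 from 1.67 to 18.1 and back to 3.39. Ung was highest in bin 3 (17.4 CPM), with 14.4 in bin 4 and 2.39 in bin 5. Rrm1 was highest in bin 5, at 112 CPM after 102 in bin 4. Dut, E2f1 and Slbp varied least: Dut held 173 CPM in bin 1 and 387 in bin 4, E2f1 12.6 and 21.5, and Slbp 58.6 and 116.

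**Figure D4:**
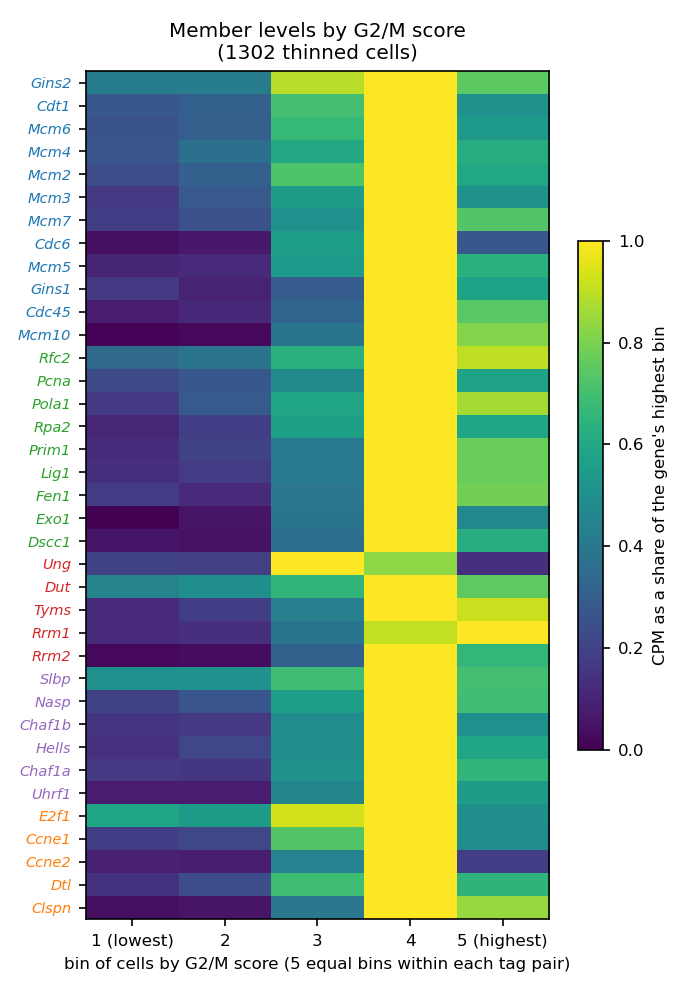
Level of each member in 5 equal bins of cells by G2/M score, as a share of its highest bin (colour), over 1302 thinned cells; gene names are coloured by role and sorted within it. Bin 4 is the brightest for 35 members, bin 3 for Ung and bin 5 for Rrm1.

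Cells with higher interferon and class I scores held fewer member UMIs. Within tag pairs the member score had r of -0.184 with the interferon-gamma score, -0.369 with the class I score and -0.210 with the type I interferon score. The r with class I was negative in 15 of 16 tag pairs (-0.536 to 0.116), that with interferon-gamma in 13 (-0.356 to 0.202) and that with type I interferon in 12 (-0.385 to 0.234). Pooled over all 1407 cells the same values were -0.106, -0.203 and -0.164. Total UMIs moved with both sides: log10 of a cell's UMIs had r of 0.540 with the member score, 0.503 with G2/M, -0.251 with interferon-gamma and -0.473 with class I. With it regressed out, the r of the members fell in size to -0.0592 with interferon-gamma, -0.153 with class I and -0.0922 with type I interferon, and that with G2/M to 0.211. As background, cells late in the cycle hold more RNA, so depth and cycle cannot be told apart here.

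Counts of members gave the same picture. With the interferon-gamma score, 35 of 37 had a negative r, against 5578 of 11067 genes tested, and none reached 0.1, against 9.16%. Of the 37, 21 had r of -0.1 or lower, against 8.92% of genes. This count fell to 12 without HTO2+HTO8, the largest tag pair, to 6 without subtracting pair means and to 2 with total UMIs regressed out. With the class I score 35 had r of -0.1 or lower, against 16.7% of genes, and with type I interferon 23, against 9.94%. For 36 members the r with class I was lower than that with interferon-gamma, against 58.8% of genes. Nasp (-0.227 with interferon-gamma, -0.380 with class I) and Dut (-0.209 and -0.288) were the lowest with interferon-gamma. The 5 nucleotide genes were all at -0.1 or lower with all 3 scores. E2f1 (0.00256 and 0.0163) and Gins2 (0.00196 and -0.0405) lay near 0, and both also had low r with the other members. Next nearest to 0 with interferon-gamma were Chaf1b (-0.0338), Dscc1 (-0.0411), Cdt1 (-0.0415), Slbp (-0.0425), Cdc45 (-0.0542) and Lig1 (-0.0592). Others, such as Mcm10 (-0.0654), were also within 0.1 of 0. Each gene from Chaf1b to Mcm10 named here was at -0.1 or lower with class I. The median over members was -0.107 with interferon-gamma and -0.213 with class I, beside -0.000731 and -0.00587 over all genes tested.

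**Figure D5:**
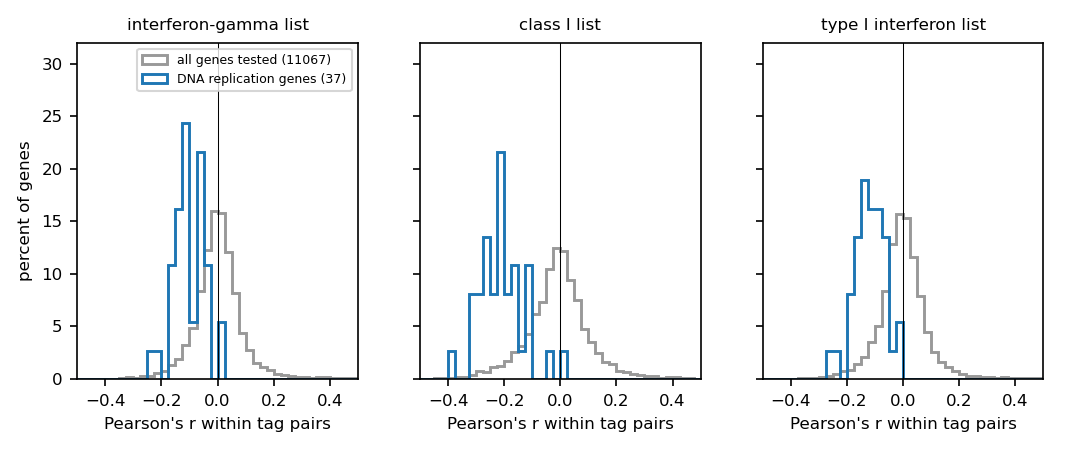
Distribution of Pearson's r within tag pairs with the interferon-gamma, class I and type I interferon scores for the 37 members (blue) and all 11067 genes tested (grey), as percent of genes. The members lie to the left of the grey curve in all 3 panels, furthest with class I.

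In levels, each tag pair of at least 30 cells (14 pairs) was divided into 3 equal bins by interferon-gamma score. The members' CPM in the top bin was a median of 0.794 times that in the bottom bin (0.521 to 1.20), and lower in 11 of 14 pairs. In HTO2+HTO8 the members held 2421 CPM in the bottom bin and 1416 in the top bin. HTO8+HTO10, HTO6+HTO9 and HTO2+HTO5 went the other way, at 1.09, 1.20 and 1.17. Median UMIs per cell were lower in the top bin in 13 of 14 pairs, for example 34830 against 53500 in HTO2+HTO8, and higher in HTO4+HTO9, at 47690 against 43150. By member, 34 of 37 had a median ratio below 1, against 50.6% of genes tested. Nasp was lower in 13 of 14 pairs (median 0.623), and Rpa2, Mcm2, Dut and Exo1 in 12. Cdc6 had the lowest median, 0.450. Gins2, Lig1 and E2f1 had 1.02, 1.01 and 1.01. G2/M genes had a median of 0.775 and histones of 0.740, so the members were near these cycle lists, and the difference between lists was not tested. When each pair was divided into 2 bins by interferon-gamma score in place of 3, the median ratio of the members was 0.966, with 10 of 14 pairs below 1. When cells were ranked by class I score, it was 0.549.

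By median r, the relation to class I was largest for the genes of the class I molecule itself. Differences between subsets of class I genes were not tested, and r is lower for genes with few UMIs. Cells were put into 4 equal bins by member score within a tag pair, with bins and gene subsets chosen after seeing the data. Values by member bin, here and below, were not adjusted for a cell's total UMIs. Log10 of these had r of 0.540 with the member score and -0.473 with class I. From the lowest to the highest bin, the class I list went from 15530 to 12300, 9383 and 8608 CPM. B2m, the light chain of class I, went from 4255 to 2215 CPM and was lower at the top in 16 of 16 tag pairs. The heavy chains H2-K1 and H2-D1 were at 0.482 and 0.507 times their lowest-bin level, each lower in 15 pairs. Psmb9, a subunit of the immunoproteasome, was at 0.752 (lower in 14 of 16 pairs). The interferon-gamma list was at 0.669 and the type I list at 0.689, both lower in 14 of 16 pairs. By gene, 8 heavy chain genes and B2m, 9 genes in all, had a median r of -0.327 with the members, and all 9 were at -0.1 or lower, a size seen in 12.0% of genes. The 5 genes of peptide transport and loading had a median of -0.134 and the 5 proteasome genes -0.155, with 3 of 5 at -0.1 or lower in each. The subsets overlapped: Tapbp (-0.261), Psme1 (-0.236) and Tap2 (-0.231) lay below the heavy chains H2-M3 (-0.214), H2-Q7 (-0.178) and H2-Q6 (-0.107). Nlrc5, the activator of class I transcription, had -0.0835. In whole lists, 15 of 20 class I genes, 14 of 22 interferon-gamma genes and 15 of 25 type I genes tested had r of -0.1 or lower with the member score.

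Fibroblast markers went with class I. Over the 7 markers, the score had r of -0.418 with the members, 0.462 with class I and 0.302 with interferon-gamma within tag pairs, so its r with the members was of the size of that of class I. Col3a1, a fibrillar collagen found in 97.35% of kept cells, had -0.429 with the members and 0.506 with class I. The marker list went from 1963 CPM in the lowest member bin to 510 in the highest. Dcn (-0.248), Pdgfrb (-0.210), Pdgfra (-0.196) and Col1a1 (-0.160) were also below 0 with the members. The melanoma and melanocyte markers had -0.155 with the members and 0.193 with class I, and the endothelial markers 0.153 and -0.125. Pax3 gave 32.1 of 37.1 CPM in the first list and Cdh5 35.0 of 45.7 CPM in the second. Of the other endothelial markers, Tek was at 0, Kdr at 3 and Pecam1 at 15 UMIs, and Egfl7 had r of 0.0393 with the members. The T cell (-0.00413), macrophage (-0.00137) and erythroid (0.0174) markers were near 0 with the members. The part of the fibroblast markers in the relation of members to class I was not tested.

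Among genes of G1 entry, Cdk4 (0.345) and its partner cyclin D1, Ccnd1 (0.318), had the highest r with the member score. Ccnd1 went from 360 CPM in the lowest member bin to 660 in the highest and was higher in 16 of 16 pairs. The kinase inhibitors Cdkn2c (-0.281) and Cdkn1b (-0.227) had the lowest r of that list. Cdkn2c went from 284 to 139 CPM and Cdkn1b from 103 to 56.0, each lower in 15 of 16 pairs. Cdkn1a, the p21 inhibitor, had 0.0471 with the members and -0.109 with interferon-gamma.

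The genes most like the members, over 1302 cells, were Pclaf (r = 0.798), which binds Pcna, Atad2 (0.707), Gmnn (0.698), the inhibitor of Cdt1, Hist1h1b (0.689) and Tk1 (0.676), thymidine kinase. H2afz, Tuba1b, Hist1h2ap, Dek and Hist1h2ae followed, from 0.648 to 0.612. The lowest were Itm2b (-0.487), B2m (-0.473), Gabarap (-0.468), Sat1 (-0.452) and Gpm6b (-0.452). Of 62 other replication genes tested, 38 had r of at least 0.3 with the members. Those near 0 or below included subunits of the origin recognition complex, Orc3 (0.0571), Orc4 (0.0437) and Orc5 (0.0474), the topoisomerase Top1 (-0.0584) and Pold4 (-0.179), a small subunit of polymerase delta. The other subunits Orc6 (0.539), Orc2 (0.285) and Orc1 (0.280) stood above them. Samhd1, which breaks down dNTPs, had -0.0433 with the members and 0.567 with the interferon-gamma score, the only one of the 62 above 0.3 with it.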

How the data were processed

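One pool of 18 tumors gave 1 gene expression and 1 hashtag library, deposited together as raw UMI counts per barcode, not normalized. Cell Ranger 6.1.2 stands in the file headers, but 2.1.1, with GRCm38, in the submitters' processing notes, and which of them applies is not resolved. Barcodes needed 5000 gene UMIs and at most 15% mitochondrial UMIs. A hashtag was called above Otsu's threshold on log2(count + 1), a rule chosen after seeing the tag counts, and barcodes with 3 or more tags were left out as doublets. This cannot find doublets of cells from 1 tumor. A pair needed 10 cells.

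Cells were thinned at random to 20000 UMIs for correlations, which left out 141 of 1548 cells. Counts were scaled to 10000 per cell and log-transformed, scores were means over a list without the gene compared, and tag pair means were subtracted. Sizes of -0.1 and 0.3 in r were used to count genes. Cells are not replicates and no sample can be tied to a condition, so no test was run. Levels are CPM of summed UMIs with exact Poisson intervals, shares have Clopper-Pearson intervals, both at 95%, and a count of 0 allows up to 3 counts.

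The members, lists and sizes were chosen with earlier results of these data known. All members were described, and further genes were named as the 10 with the highest and the 5 with the lowest r with the member score, and as the extremes of each list in level or r. Other genes (Orc1 to Orc6, Cdkn1a, the class I genes and markers) were picked after their values were seen. Thinning depth, cell limits, pair means, hashtag rule, scaling by total UMIs and each tag pair in turn were varied. The code was tested on simulated counts, where the limit set for r between a score and the known simulated factor was missed and then lowered. It used Python 3.11.15, numpy 2.4.6, scipy 1.17.1, pandas 2.3.3, scikit-image 0.26.0 and scikit-learn 1.9.0.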

Additional observations from a re-analysis of the deposited data

Results flagged for a closer look

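DNA replication genes were also read in barcodes that the comparisons left out. Barcodes under 800 UMIs held 1971 CPM of the members, barcodes over 15% mitochondrial UMIs held 1521 CPM, and barcodes with 3 or more hashtags held 2121 CPM. Each lies above the limit that a count of 0 allows, and there was no control sample to set beside them. Kept cells held 1956 CPM.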

How the results depend on the processing

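No r of the member score with another score and no ratio of top to bottom bin changed direction in an alternative run. Counts of members, summed levels and the ratio between the extreme pairs have no direction that could reverse. The count of 21 members with r of -0.1 or lower with interferon-gamma depended most on the processing: it was 8 with cells thinned to 10000 UMIs, 12 at 30000 UMIs, 6 without subtracting pair means and 2 with log10 of total UMIs regressed out, and 12 to 22 with 1 tag pair left out at a time (12 without HTO2+HTO8). The r with class I was -0.203 without subtracting pair means and -0.153 with total UMIs regressed out, which also took the r with G2/M to 0.211. The ratio between the extreme pairs was 1.22 in pairs of at least 50 cells and 1.63 with hashtag cutoffs from a Gaussian mixture. The ratio of top to bottom bin was 0.549 with cells ranked by class I and 0.966 with 2 bins in place of 3, against 0.794. The cause of these changes was not tested. Regressing out total UMIs and the mixture cutoffs were added after seeing the data. With 1 tag pair left out at a time, r ranged from -0.382 to -0.338 with class I, -0.197 to -0.139 with interferon-gamma, -0.236 to -0.178 with type I interferon and 0.409 to 0.436 with G2/M, the bin ratio from 0.777 to 0.811, and 36 to 37 members had r of at least 0.3 with the rest. Many of the runs left out 1 tag pair and so shared most of their cells with the main run. Values were called moved beyond 1 SD over tag pairs, 1.5 times for counts, or the counting interval for the pair ratio, which held for 11 and not for 182. Some within that wide limit still changed much: with total UMIs regressed out, r was -0.0592 with interferon-gamma and -0.0922 with type I interferon. No paired analysis was possible because the data form 1 pooled library. Depth limits the members with few UMIs, whose r is lowered by counting noise.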
